A study of Mus musculus with 6 samples.

Results

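The integrated stress response and the serine synthesis pathway were followed through 10 genes in the renal cortex of mice given tofogliflozin. The genes were chosen by symbol: the transcription factors Atf4 and Ddit3, the regulators Trib3 and Sesn2, the enzymes Chac1 and Asns, the serine synthesis enzymes Phgdh, Psat1 and Psph, and the secreted factor Gdf15. All 10 were found among the 24346 genes listed in each library. RNA was sequenced from 3 C57BL/6 mice fed for 8 weeks a high-fat, high-cholesterol diet with bile salt (HF/HC/HS/BA) to which tofogliflozin had been added, and from 3 C57BL/6 mice fed the same diet alone for 8 weeks. Tofogliflozin blocks SGLT2, through which the first part of the proximal tubule takes glucose back from the filtrate. Both groups carry the steatohepatitis-inducing diet, so every comparison is drug against no drug on that diet, with no animals on ordinary chow. The sex and age of the mice are not given in the labels.

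In the integrated stress response, kinases that sense amino acid shortage, misfolded protein, double-stranded RNA or heme lack phosphorylate the initiation factor eIF2. Bulk translation then slows while the mRNA of the transcription factor ATF4 is translated more, so ATF4 protein can change with little change in Atf4 mRNA. ATF4 induces genes that make and import amino acids, including those of the serine pathway, which builds serine from the glycolytic intermediate 3-phosphoglycerate. The kidney is known as an organ that makes and releases serine.

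Across the 10 genes, tofogliflozin was accompanied by no change that passed the test. Of the 8 that reached the filter on low values, 0 passed (limma, Benjamini-Hochberg adjusted p under 0.05 over all 12248 genes tested), where the share of all genes that passed was 0.253% (0.196% higher and 0.0572% lower). Before adjustment, 2 of the 8 had a limma p under 0.05, Sesn2 with a change above 0 and Gdf15 with a change below 0, against 13.1% of all genes tested (6.7% higher and 6.39% lower). In 3 of the 8 the drug and diet libraries did not overlap, which was so for 18.5% of all genes: Sesn2 was the 1 member with every drug library above (9.63% of all genes), and Asns and Gdf15 the 2 with every drug library below (8.86% of all genes). Of the 8 members, 5 had a log2 change above 0 and 3 below, with a median of 0.05, where 49.7% of all tested genes lay above 0 and their median was -0.00075. Each log2 change is the drug mean minus the diet mean of log2(FPKM + 1), a scale that understates the change of low genes. FPKM is the number of fragments scaled to transcript length and to library depth, so levels can be compared between genes.

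**Figure D1:**
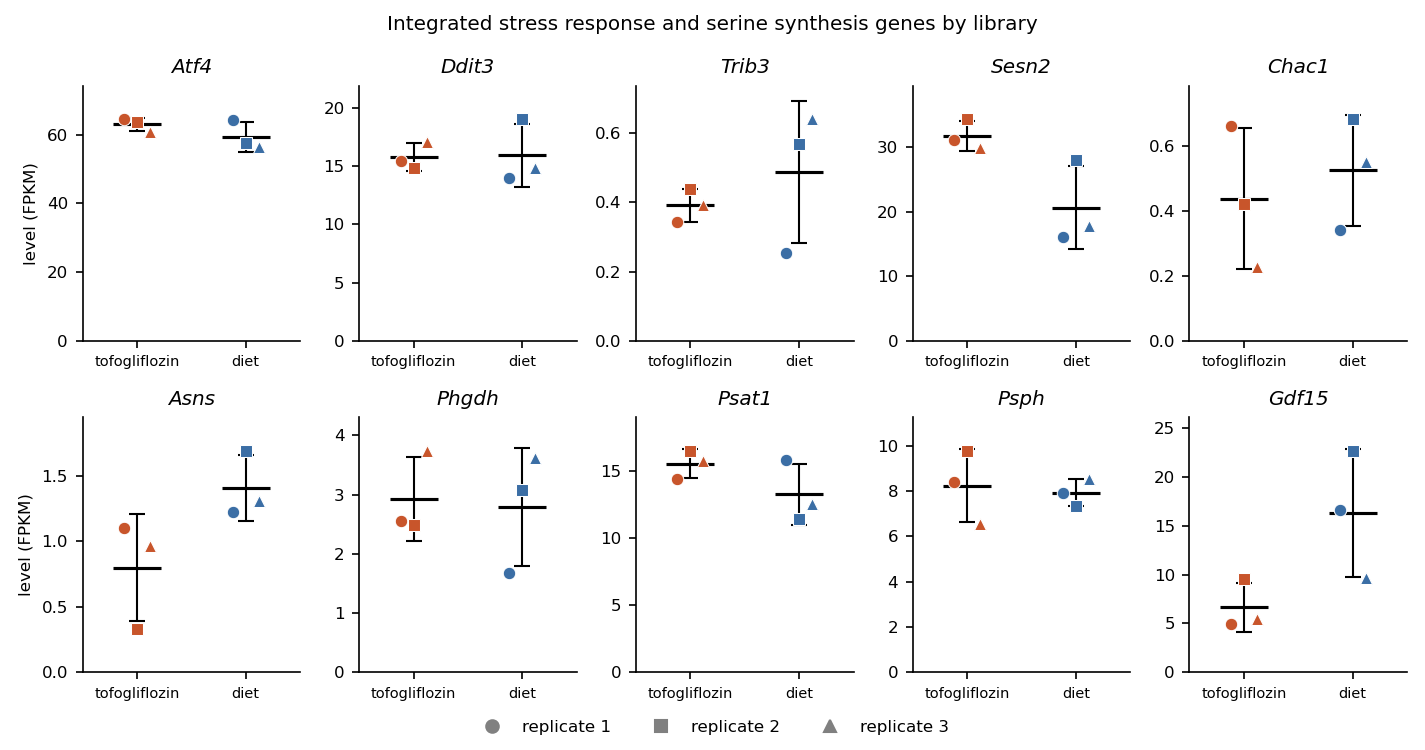
Level (FPKM, vertical axis from 0) of each of the 10 genes in the 3 tofogliflozin libraries (left, orange) and the 3 diet libraries (right, blue); symbols mark replicate numbers, the thick line is the mean and the bar the SD. Every tofogliflozin library lies above every diet library for Sesn2 and below every one for Asns and Gdf15, while the groups overlap for the other genes.

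The spacing of the lowest values put the depth at roughly 7830000 to 9900000 fragments in the drug libraries and 7690000 to 8330000 in the diet libraries. The members were therefore measured with very unequal precision: about 897 to 1290 fragments of Atf4, but only about 3.95 to 10.8 of Trib3, 3.25 to 10.7 of Chac1 and 5.29 to 26.4 of Asns in a library. These fragment numbers are estimates from the annotated transcript length. As the renal cortex label requires, markers of the early proximal tubule were abundant: the summed level of 8 of them was 3295 to 3468 FPKM in drug libraries and 3435 to 3835 FPKM in diet libraries, while 6 adipocyte markers summed to 0.139 to 0.419 FPKM with the drug and 0.156 to 2.78 FPKM on the diet alone. The labels number the mice of both groups 1 to 3 and say nothing of shared cages or batches.

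Atf4, the central transcription factor of the response, was the most abundant of the 10 genes. It was at 64.5, 63.6 and 60.9 FPKM in the drug libraries, against 64.3, 57.6 and 56.3 FPKM in the diet libraries. Diet replicate 1 lay among the drug libraries, so the groups overlapped. The means were 63.0 ± 1.89 FPKM with the drug and 59.4 ± 4.27 FPKM on the diet alone (SD, n = 3 each). The log2 change was 0.09 ± 0.07 (SE), with a 95% interval of -0.09 to 0.26 (limma adjusted p = 0.674). It was 0.14 without diet replicate 1 and 0.05 without diet replicate 3. Values of this kind describe the mRNA and do not measure the translation step at which ATF4 is mainly controlled.

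Ddit3 encodes CHOP, the transcription factor that ATF4 induces when stress persists and that promotes cell death. It was at 15.4, 14.9 and 17.1 FPKM with the drug and at 14.0, 19.0 and 14.8 FPKM on the diet alone. The drug libraries all fell inside the range of the diet libraries. Its log2 change was -0.00 ± 0.12 (SE), with a 95% interval of -0.28 to 0.27 (limma adjusted p = 0.994). The sign is not settled by the data: it was positive in 6 of 15 other settings, among them upper-quartile scaling (0.0016). Exons of Ddit3 overlap exons of Mars, the methionyl-tRNA synthetase gene, on the opposite strand, and whether strand was used in counting is not given in the sources used here.

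Trib3 encodes a pseudokinase that binds ATF4 and CHOP and dampens their activity. It stayed under 1 FPKM in all 6 libraries and was not tested. Its levels were 0.343, 0.438 and 0.394 FPKM with the drug, against 0.254, 0.569 and 0.640 FPKM on the diet alone. The drug libraries lay between the lowest diet library and the other two.

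Sesn2, sestrin 2, is an ATF4 target that binds leucine and restrains mTORC1, the kinase complex that drives growth when amino acids are plentiful. It was at 31.1, 34.4 and 29.9 FPKM in the drug libraries, against 16.1, 28.0 and 17.8 FPKM in the diet libraries. The drug libraries were close together, and diet replicate 2 lay just under them while the other diet libraries were far lower. The means were 31.8 ± 2.30 FPKM with the drug and 20.6 ± 6.47 FPKM on the diet alone (SD, n = 3 each), a ratio of 1.54. The log2 change was 0.64 ± 0.18 (SE), with a 95% interval of 0.22 to 1.06 (limma adjusted p = 0.206), and it did not pass. Without diet replicate 2 it was 0.87 and passed (limma adjusted p = 0.0181); in the other leave-one-out fits the change was 0.49 to 0.68 with adjusted p of 0.293 to 0.487.

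Asns, asparagine synthetase, makes asparagine from aspartate and glutamine and is a standard readout of ATF4 activity. It was at 1.10, 0.335 and 0.965 FPKM with the drug and at 1.22, 1.69 and 1.31 FPKM on the diet alone. Every drug library lay below every diet library, tofogliflozin replicate 1 only narrowly, and replicate 2 far below the rest. The means were 0.801 ± 0.409 FPKM and 1.41 ± 0.250 FPKM (SD, n = 3 each). The log2 change was -0.44 ± 0.20 (SE), with a 95% interval of -0.90 to 0.01 (limma adjusted p = 0.392). Asns reached the filter through the 3 diet libraries and 1 drug library, and a pseudocount of 0.1 in place of 1 moved its change to -0.86. Without tofogliflozin replicate 2 the change was -0.24.

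Chac1 degrades glutathione and is also induced by ATF4 and CHOP. It was under 1 FPKM in every library and was not tested, at 0.662, 0.422 and 0.228 FPKM with the drug and 0.343, 0.683 and 0.551 FPKM on the diet alone. The groups overlapped almost fully. In the fit without a filter on low values, Chac1 and Trib3 had log2 changes of -0.09 each, with 95% intervals of -0.41 to 0.23 and -0.35 to 0.17.

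ATF4 binds target promoters with C/EBP partners at a composite site, the C/EBP-ATF response element, read here as TGATGNAA on either strand. The RefSeq promoter table (GRCm38.p6) holds all 10 genes, with a pair of start sites each for Psat1 and Gdf15. In the 250 bases before each start, the letters were present in Asns and in Chac1 and not in the other 8 genes, while 3.45% of the 32851 promoters of the table hold them. The element was chosen with these windows already read. The Asns match runs from 23 to 16 bases before the start on the strand of the gene, and the Chac1 match from 193 to 186 bases before the start on the other strand. Shown are those 2 promoters, with the match in capitals, and those of the 2 members with the smallest p, Sesn2 and Gdf15, which have no match in this window. They lie at chr6:7693210-7693459 (Asns, minus strand), chr2:119350992-119351241 (Chac1, plus strand), chr4:132510457-132510706 (Sesn2, minus strand) and chr8:70632457-70632706 (Gdf15, minus strand, the upstream of its start sites).
Asns: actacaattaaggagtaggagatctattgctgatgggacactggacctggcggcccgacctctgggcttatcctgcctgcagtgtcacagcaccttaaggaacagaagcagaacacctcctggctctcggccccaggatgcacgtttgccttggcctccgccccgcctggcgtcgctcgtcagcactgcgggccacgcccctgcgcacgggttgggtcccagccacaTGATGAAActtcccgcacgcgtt
Chac1: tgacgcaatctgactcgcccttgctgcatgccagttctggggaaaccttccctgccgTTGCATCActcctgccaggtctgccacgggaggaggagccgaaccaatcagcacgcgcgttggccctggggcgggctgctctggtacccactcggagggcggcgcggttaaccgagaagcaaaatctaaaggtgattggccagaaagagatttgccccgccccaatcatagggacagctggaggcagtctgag
Sesn2: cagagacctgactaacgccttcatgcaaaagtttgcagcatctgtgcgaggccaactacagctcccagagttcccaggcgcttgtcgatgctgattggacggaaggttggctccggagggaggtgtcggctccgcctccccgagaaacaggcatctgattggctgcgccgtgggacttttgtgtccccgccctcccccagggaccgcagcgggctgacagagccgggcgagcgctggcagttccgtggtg
Gdf15: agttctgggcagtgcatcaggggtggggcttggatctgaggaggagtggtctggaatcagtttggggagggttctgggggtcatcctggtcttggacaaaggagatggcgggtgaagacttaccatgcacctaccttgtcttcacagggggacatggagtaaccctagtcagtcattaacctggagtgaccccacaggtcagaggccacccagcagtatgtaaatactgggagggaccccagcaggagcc
A match is a description of the letters and does not show binding, and its absence in 250 bases does not bear on sites elsewhere in the gene. Both genes with the letters were among the 3 least abundant members, at means of 0.438 to 0.801 FPKM with the drug and 0.526 to 1.41 FPKM on the diet alone.

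The serine pathway has 3 steps. Phgdh, 3-phosphoglycerate dehydrogenase, which opens it, was at 2.55, 2.49 and 3.74 FPKM with the drug, against 1.69, 3.08 and 3.61 FPKM on the diet alone. The groups overlapped, and the log2 change was 0.07 ± 0.22 (SE; 95% interval -0.42 to 0.57; limma adjusted p = 0.924). Its sign turned without tofogliflozin replicate 3 (-0.07) or diet replicate 1 (-0.16). GENCODE M21 (GRCm38) lists 22 other genes whose transcripts match those of Phgdh at 90% identity or more over at least 200 bases, mostly named as predicted genes, so its value is uncertain. Gm12611 is such a copy of Psat1.

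Psat1, phosphoserine aminotransferase, was at 14.4, 16.5 and 15.7 FPKM with the drug, against 15.8, 11.5 and 12.6 FPKM on the diet alone. Only diet replicate 1 reached the drug range. The log2 change was 0.22 ± 0.12 (SE; 95% interval -0.05 to 0.50; limma adjusted p = 0.472), and it was 0.35 without diet replicate 1 and 0.13 without diet replicate 2. Psph, phosphoserine phosphatase, which releases serine, was at 8.42, 9.78 and 6.55 FPKM with the drug, against 7.90, 7.35 and 8.55 FPKM on the diet alone. Its drug libraries spread to both sides of the diet libraries, with a log2 change of 0.04 ± 0.13 (SE; 95% interval -0.27 to 0.34; limma adjusted p = 0.939), and the sign turned without tofogliflozin replicate 2 (-0.08) or diet replicate 2 (-0.01). Exons of Psph overlap those of Cct6a on the opposite strand. By these values Phgdh was the least abundant enzyme of the pathway and Psat1 the most, in both groups. The means were 2.93, 15.6 and 8.25 FPKM for Phgdh, Psat1 and Psph with the drug and 2.79, 13.3 and 7.93 FPKM on the diet alone. The copies of Phgdh and the overlap of Psph with Cct6a make this order uncertain.

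Gdf15 encodes a stress-induced hormone of the TGF-β superfamily that lowers food intake through its hindbrain receptor GFRAL. It was at 4.93, 9.57 and 5.43 FPKM in the drug libraries, against 16.6, 22.6 and 9.64 FPKM in the diet libraries. Every drug library lay below every diet library, although tofogliflozin replicate 2 and diet replicate 3 were almost equal. The means were 6.64 ± 2.55 FPKM with the drug and 16.3 ± 6.51 FPKM on the diet alone (SD, n = 3 each), a ratio of 0.407. The log2 change was -1.15 ± 0.31 (SE), with a 95% interval of -1.86 to -0.44. It was the largest of the 8 members tested and did not pass (limma adjusted p = 0.191). With a library left out the change ran from -1.47 to -0.89 and passed in none of the 6 fits (adjusted p from 0.0699 to 0.507). Gfral was listed at 0 in all 6 libraries.

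**Figure D2:**
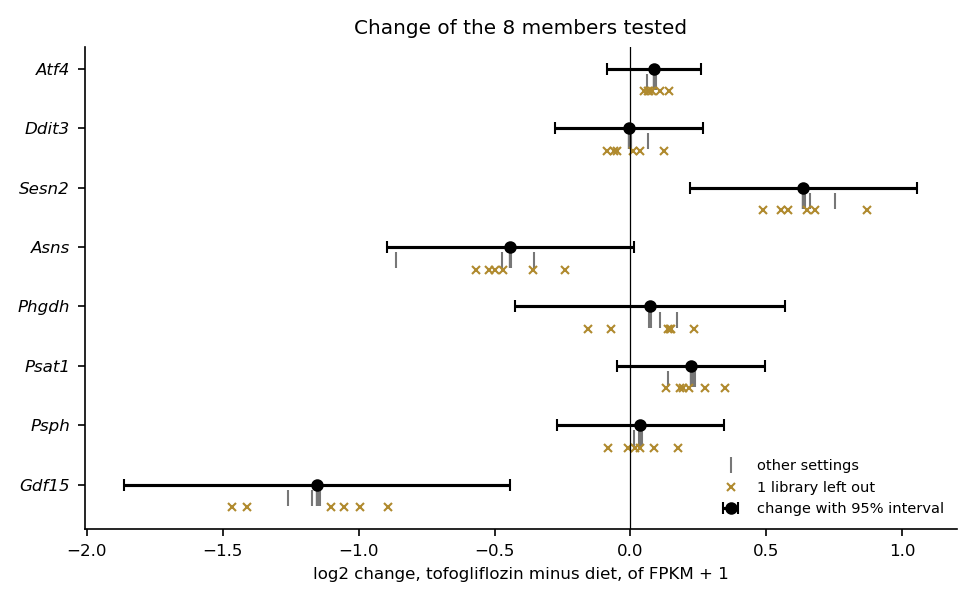
Log2 change (tofogliflozin minus diet, log2 of FPKM + 1, horizontal axis) of the 8 genes tested, with its 95% interval (black), the same change with 1 library left out (crosses) and in the other settings (ticks). The intervals of Sesn2 (0.22 to 1.06) and Gdf15 (-1.86 to -0.44) exclude 0 before adjustment over all genes, and the crosses of Ddit3, Phgdh and Psph fall on both sides of 0.

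Diet replicate 2 was the highest of the 6 libraries for Ddit3, Chac1, Asns and Gdf15, and the lowest for Psat1. Diet replicate 1 was the lowest for Ddit3, Trib3, Sesn2 and Phgdh. Sesn2 deviated from its mean by 0.29, 0.43 and 0.24 on the log2 scale in the drug libraries and by -0.62, 0.15 and -0.48 in the diet libraries. Gdf15 deviated by -0.89, -0.06 and -0.78 with the drug and by 0.68, 1.10 and -0.05 on the diet alone.

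**Figure D3:**
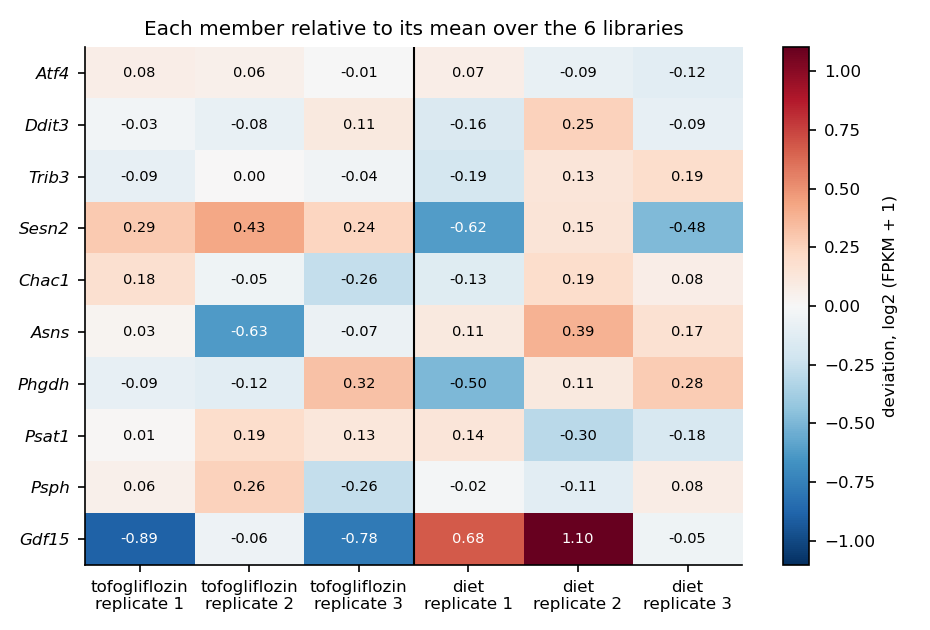
Deviation of each gene (rows) from its mean over the 6 libraries (columns, tofogliflozin left of the line and diet right of it), in log2 of FPKM + 1, with the value printed in each cell. Sesn2 is above its mean in all 3 tofogliflozin libraries (0.24 to 0.43) and Gdf15 below it (-0.89 to -0.06), while Atf4 and Ddit3 stay within -0.16 to 0.25 in all libraries.

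A list of 20 genes upstream of Atf4 covered the eIF2 kinases and their regulators, eIF2, its exchange factor and its phosphatase. It also held Eif2a, the gene of a separate initiation factor. Of the 20, 0 passed in either direction (limma adjusted p under 0.05; 0 higher and 1 lower at an unadjusted p under 0.05). Their median log2 change was -0.00 and their mean 0.02, with 10 above 0 and 10 below. Gcn1l1, the activator of the amino acid sensing kinase GCN2, was at 15.6, 16.5 and 16.3 FPKM with the drug and 19.6, 18.9 and 18.1 FPKM on the diet alone, without overlap (log2 change -0.21; limma adjusted p = 0.252). The 4 kinases, named for their role, were most abundant as Eif2ak1 (HRI), at 31.1 ± 1.77 and 34.6 ± 2.24 FPKM with the drug and on the diet alone. Eif2ak3 (PERK) was at 10.3 ± 0.671 and 9.18 ± 0.743 FPKM, Eif2ak2 (PKR) at 4.67 ± 0.285 and 4.90 ± 1.02 FPKM, and Eif2ak4 (GCN2) at 3.88 ± 0.319 and 3.34 ± 0.589 FPKM (SD, n = 3 each). Their limma adjusted p ran from 0.468 to 0.929.

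Among the factors that pair with ATF4 or share its bZIP fold, 0 of 18 tested passed (limma; 1 higher and 4 lower at an unadjusted p under 0.05), with a median of -0.05. Cebpb, a C/EBP partner of ATF4, was at 15.5, 19.5 and 19.8 FPKM with the drug, against 12.8, 4.97 and 13.3 FPKM on the diet alone (log2 change 0.86; limma adjusted p = 0.288). All drug libraries were above all diet libraries, and diet replicate 2 was far below the rest. Junb, an AP-1 subunit, was at 8.63, 15.9 and 12.8 FPKM with the drug and 21.6, 21.3 and 17.3 FPKM on the diet alone (log2 change -0.68; limma adjusted p = 0.203). Creb3l1, a membrane-bound factor, was at 1.23, 1.06 and 0.855 FPKM against 2.21, 1.24 and 2.60 FPKM (limma adjusted p = 0.284). Atf3, a stress-induced relative, was under the filter at 0.868, 0.586 and 0.469 FPKM with the drug and 0.661, 1.12 and 1.33 FPKM on the diet alone.

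Some genes are in more than 1 list, so the counts of the lists are not separate. Cebpb and Atf5 are counted both among the bZIP factors and among the ATF4 targets here, and Cth is also counted among the serine enzymes below. Of 43 ATF4 target genes other than the members found in the files, 31 were tested and 0 passed (limma, 6 higher and 3 lower at an unadjusted p under 0.05). Their median was 0.11, and 20 of the 31 lay above 0. The median was 0.07 without diet replicate 2 and 0.06 without diet replicate 3. Leaving out tofogliflozin replicate 3 brought the number higher at an unadjusted p under 0.05 to 3. Slc1a5, which imports glutamine and other neutral amino acids, was at 22.8, 21.9 and 25.2 FPKM with the drug, against 13.9, 16.5 and 14.9 FPKM on the diet alone. The groups were well apart, and the log2 change of 0.59 missed the threshold (limma adjusted p = 0.0532). Stc2, the secreted glycoprotein stanniocalcin 2, was at 3.87, 2.11 and 3.53 FPKM with the drug and 0.589, 0.881 and 0.880 FPKM on the diet alone (log2 change 1.20; limma adjusted p = 0.0541). It reached the filter only through the drug libraries. Stc2 passed with array weights (limma adjusted p = 0.0322), the robust trend (0.0332) and without tofogliflozin replicate 2 (0.0422), and Slc1a5 with array weights (0.0275), the robust trend (0.0311) and without diet replicate 2 (0.0329). Herpud1, a component of endoplasmic reticulum-associated degradation, was at 291, 348 and 364 FPKM against 271, 219 and 250 FPKM (log2 change 0.44; limma adjusted p = 0.184). Fgf21, another secreted ATF4 target, was listed at 0 in all 6 libraries, and Slc7a11, the cystine transporter, was at 0 to 0.0201 FPKM with the drug and 0 to 0.0130 FPKM on the diet alone.

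Charging enzymes for tRNA, many of which ATF4 induces together, gave 0 of 20 passing (limma; 1 higher and 1 lower at an unadjusted p under 0.05), with a median of -0.01. Aars, for alanine, was at 22.2, 25.7 and 22.8 FPKM with the drug and 30.4, 26.5 and 29.9 FPKM on the diet alone, and Lars, for leucine, at 11.3, 12.4 and 12.1 FPKM against 10.4, 9.14 and 10.3 FPKM (limma adjusted p = 0.225 and 0.265). These 2 enzymes lay on opposite sides, each without overlap between groups. Wars, for tryptophan, had a log2 change of -0.10 (limma adjusted p = 0.646).

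Around serine, 35 enzymes of serine, glycine and folate one-carbon metabolism and of glycolysis were tested. Of the 35, 0 passed (limma; 6 higher and 3 lower at an unadjusted p under 0.05), with a median of -0.02, a mean of 0.03 and 17 above 0. The glycolytic enzymes in the list, Gapdh, Pgk1, Pgam1 and Eno1, had log2 changes of -0.04, -0.05, -0.06 and -0.07. The median of the list was above 0 with quantile normalization and without tofogliflozin replicate 1 or diet replicate 1. Agxt2, a mitochondrial alanine-glyoxylate aminotransferase, was at 101, 92.9 and 96.3 FPKM with the drug, against 71.0, 77.7 and 73.6 FPKM on the diet alone (log2 change 0.38; limma adjusted p = 0.0758). Gldc, the glycine decarboxylase of the glycine cleavage system, was at 96.0, 135 and 167 FPKM against 77.5, 77.2 and 69.6 FPKM (log2 change 0.78; limma adjusted p = 0.130). Every drug library was above every diet library for both. Dmgdh, which oxidises dimethylglycine, was at 70.8, 70.9 and 80.5 FPKM against 59.2, 57.8 and 61.2 FPKM (log2 change 0.31; limma adjusted p = 0.155).

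In the list of asparagine, aspartate, glutamine and proline enzymes, 16 were tested and 0 passed (limma; 5 higher and 0 lower at an unadjusted p under 0.05). The median was 0.16, and 10 of the 16 lay above 0. Without diet replicate 2 the median was 0.05. Glul, glutamine synthetase, was at 290, 357 and 320 FPKM with the drug, against 211, 227 and 214 FPKM on the diet alone (log2 change 0.56; limma adjusted p = 0.0656), and Oat, ornithine aminotransferase, at 120, 95.5 and 131 FPKM against 71.9, 89.8 and 93.0 FPKM (0.43; limma adjusted p = 0.237). Both had the groups apart, on the side opposite to Asns, which uses glutamine as its nitrogen donor.

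**Figure D4:**
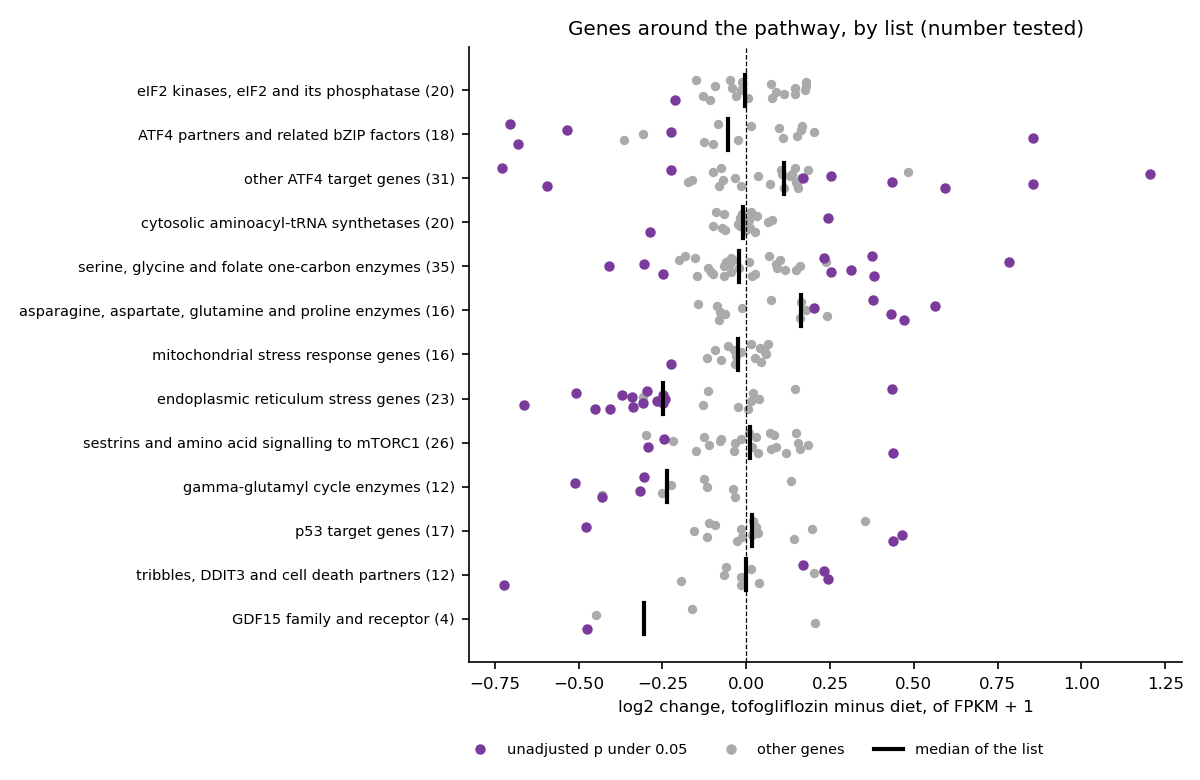
Log2 change (tofogliflozin minus diet, log2 of FPKM + 1, horizontal axis) of each tested gene in 13 gene lists (rows, with the number tested); purple points have an unadjusted p under 0.05, the thick line is the median of the list and the dashed line that of all genes tested (-0.00075). The medians of the endoplasmic reticulum list (-0.25) and the gamma-glutamyl list (-0.24) lie left of the dashed line and that of the asparagine, aspartate, glutamine and proline list (0.16) right of it.

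The chaperones and degradation genes of the endoplasmic reticulum, which respond to misfolded protein through PERK and its parallel branches, lay mostly below 0. Of 23 tested, 0 passed (limma), 13 were lower and 1 higher at an unadjusted p under 0.05, and the median was -0.25, with 17 below 0. Of all genes tested, 6.39% were lower and 6.7% higher at that cut. The 1 higher gene was Herpud1 (log2 change 0.44, limma adjusted p = 0.184), given above among the ATF4 targets, with every drug library above every diet library. Sel1l, of the degradation complex, was at 20.1, 18.7 and 19.3 FPKM with the drug, against 27.0, 26.1 and 25.1 FPKM on the diet alone (log2 change -0.41; limma adjusted p = 0.0682). Hyou1, a chaperone, was at 33.4, 35.1 and 30.6 FPKM against 46.4, 41.5 and 41.1 FPKM (-0.37; limma adjusted p = 0.125), and Manf, a secreted stress factor, at 30.2, 27.5 and 25.6 FPKM against 35.3, 34.9 and 33.6 FPKM (-0.31; limma adjusted p = 0.177). The median of this list stayed between -0.29 and -0.22 in all 15 other settings. Without tofogliflozin replicate 3 or diet replicate 1, the number lower at an unadjusted p under 0.05 was 8. The mitochondrial stress genes showed 0 of 16 passing (limma; 0 higher and 1 lower at an unadjusted p under 0.05) and a median of -0.02, with Atf5, a relative of Atf4, at 5.61, 5.60 and 5.26 FPKM against 6.65, 7.08 and 6.02 FPKM (limma adjusted p = 0.335).

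Around Sesn2, 0 of 26 tested genes of amino acid signalling to mTORC1 passed (limma; 1 higher and 2 lower at an unadjusted p under 0.05; median 0.01, mean -0.00). Sesn1, its paralogue and a p53 target, was at 8.10, 10.1 and 8.46 FPKM with the drug, against 6.29, 6.51 and 6.02 FPKM on the diet alone (log2 change 0.44; limma adjusted p = 0.125). Rptor, the substrate-binding subunit of mTORC1, was at 6.42, 6.63 and 6.52 FPKM against 8.22, 7.59 and 7.96 FPKM (-0.25; limma adjusted p = 0.230). Both had the groups apart. Among p53 targets, another input to Sesn2 and Gdf15, 0 of 17 passed (limma; 2 higher and 1 lower at an unadjusted p under 0.05; median 0.02). Cdkn1a, the cell cycle inhibitor p21, was at 7.82, 7.36 and 9.80 FPKM against 7.14, 4.04 and 6.40 FPKM, and Plk2, a kinase, had a log2 change of -0.48 without overlap between groups (limma adjusted p = 0.335 and 0.155).

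Beside Chac1, the gamma-glutamyl cycle genes had 11 of 12 tested below 0 (median -0.24); 0 passed (limma; 0 higher and 4 lower at an unadjusted p under 0.05). Gclm, a subunit of the enzyme that limits glutathione synthesis, was at 85.7, 104 and 86.1 FPKM with the drug, against 134, 120 and 118 FPKM on the diet alone (log2 change -0.43; limma adjusted p = 0.135). Ggct, the cytosolic gamma-glutamylcyclotransferase, was at 21.7, 17.6 and 17.6 FPKM against 32.6, 23.5 and 26.6 FPKM, and Gss, glutathione synthetase, at 149, 173 and 156 FPKM against 218, 179 and 202 FPKM (limma adjusted p = 0.181 and 0.225). Of the tribbles, CHOP and cell death genes 0 of 12 passed (limma; 3 higher and 1 lower at an unadjusted p under 0.05; median -0.00). Trib2, the relative of Trib3, was at 13.5, 13.2 and 10.8 FPKM against 29.4, 12.8 and 25.0 FPKM (limma adjusted p = 0.292, and 0.0221 without diet replicate 2). Of 16 genes of the family and receptor of Gdf15 in the files, 4 were tested and 0 passed (limma; 0 higher and 1 lower at an unadjusted p under 0.05), Gdf11 being at 1.18, 0.503 and 0.841 FPKM against 1.82, 1.45 and 1.34 FPKM. Gdf11 reached the filter through the diet libraries and tofogliflozin replicate 1.

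Cell type markers are given beside the 2 members of smallest p, a pairing made after the values were seen, and none of the markers passed in the setting reported. Fewer cells of a type and less RNA per cell cannot be told apart in these bulk samples. All 9 macrophage markers tested of 10 had a change below 0, and 0 passed (limma; 2 at an unadjusted p under 0.05, median -0.45). Without diet replicate 2 the median was -0.19 and 1 marker lay above 0, without diet replicate 3 all 9 had an unadjusted p under 0.05, and with the replicate block 6 did. Their summed level was 145, 169 and 112 FPKM with the drug, against 196, 358 and 128 FPKM on the diet alone, none of the 10 being at 0 in any library. Diet replicate 2 was the highest library for both these markers and Gdf15. Diet replicate 3 had a lower marker sum than tofogliflozin replicates 1 and 2, with Gdf15 at 9.64 FPKM against 4.93 and 9.57 FPKM. The part of these markers in the Gdf15 values was not tested. Without diet replicate 2, Gdf15 had a log2 change of -0.89 (limma adjusted p = 0.205).

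All 8 collecting duct markers had a change above 0, and 0 passed (limma; 4 at an unadjusted p under 0.05). Their summed level was 292, 340.5 and 285 FPKM with the drug, against 214, 257 and 250 FPKM on the diet alone, none being at 0 in any library. The 6 libraries had the same order by this sum as by Sesn2, with tofogliflozin replicate 2 highest and diet replicate 1 lowest. Of 8 markers of the late proximal tubule (S3), 7 had a change below 0 (limma; 0 passed, 4 lower at an unadjusted p under 0.05), and their sum was 2673, 3126 and 2971 FPKM against 3529, 2932 and 3397 FPKM. Without tofogliflozin replicate 1 the S3 median was -0.09 in place of -0.17. An S3 marker passed with upper-quartile scaling, quantile normalization, array weights and the robust trend, and a collecting duct marker with array weights and the robust trend (1 of 8 each). A marker of the early proximal tubule (S1 and S2) passed with array weights and without diet replicate 2 (1 of 8 each). Of these 8 early markers, 4 had a change above 0 and 4 below (limma; 0 passed, 2 higher and 1 lower at an unadjusted p under 0.05). The 4 markers of the distal convoluted tubule all had a change above 0 (median 0.24, and 0.12 without tofogliflozin replicate 3). The 2 lymphocyte markers tested of 9 had a change below 0 (median -0.22, and 0.02 without diet replicate 2). The 2 neutrophil markers tested of 5 had a change above 0 (median 0.47), 1 of them at an unadjusted limma p under 0.05. All 4 tubular injury markers tested of 7 had a change above 0 (median 0.15), with 0 at an unadjusted limma p under 0.05. Without tofogliflozin replicate 1 or 2, or without diet replicate 3, 3 of these 4 lay above 0. Other marker lists lay on both sides of 0. Thick ascending limb markers had 3 changes above 0 and 2 below, and podocyte markers 3 above and 3 below. Endothelial markers had 3 above and 3 below, and fibroblast and mural cell markers 4 above and 3 below. The part of these cell types and injury markers in the Sesn2 and Gdf15 values was not tested.

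**Figure D5:**
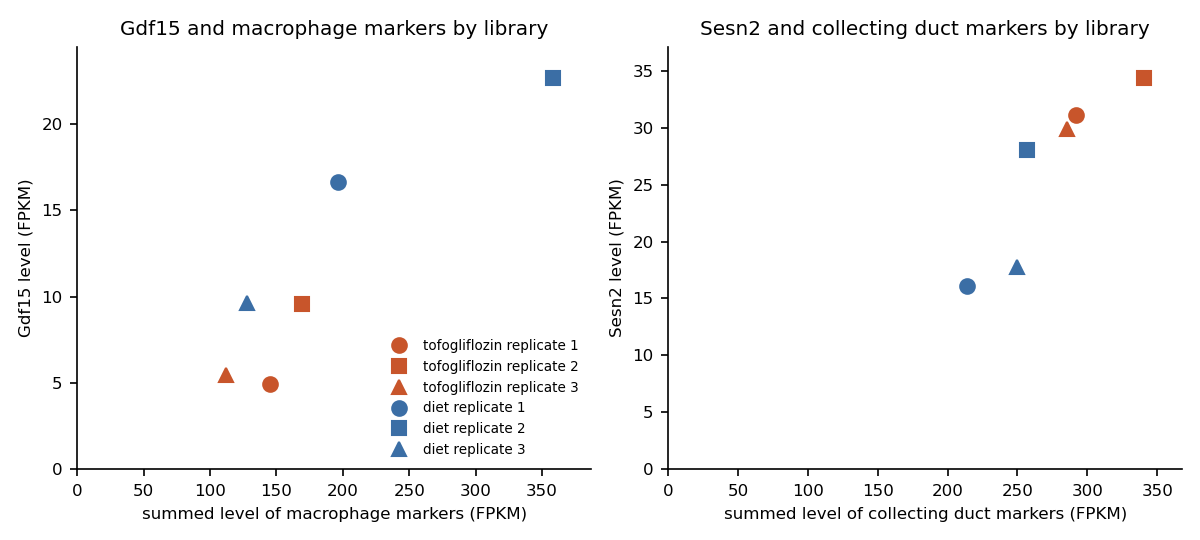
Level of Gdf15 against the summed level of 10 macrophage markers (left) and of Sesn2 against that of 8 collecting duct markers (right), in FPKM on both axes, 1 point per library, tofogliflozin orange and diet blue. Diet replicate 2 is at the top right of the Gdf15 panel (358 and 22.6 FPKM), and tofogliflozin replicate 2 is at the top right of the Sesn2 panel (340.5 and 34.4 FPKM).

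By the GENCODE M21 annotation, on GRCm38 like the files, Atf4 spans 80255184 to 80257541 on the plus strand of chromosome 15, Sesn2 132492032 to 132510501 on the minus strand of chromosome 4, Asns 7675169 to 7693254 on the minus strand of chromosome 6, and Gdf15 70629393 to 70632456 on the minus strand of chromosome 8. Phgdh spans 98313170 to 98339990 on chromosome 3, Psat1 15904678 to 15947337 on chromosome 19 and Psph 129765558 to 129787449 on chromosome 5, all on the minus strand. Trib3, on the minus strand, and Chac1, on the plus strand, share chromosome 2, at 152337422 to 152344032 and 119351229 to 119354381. The plus-strand gene Ddit3 spans 127290774 to 127296288 on chromosome 10. Each value covers the whole gene and does not tell exons or transcripts apart.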

How the data were processed

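Each library has its own file, in which the authors deposited FPKM by gene symbol. Per the labels, RNA was column-purified and libraries were made with a stranded mRNA kit. Per the submitters' processing notes, Cuffdiff 2.2.1, TopHat2 2.1.1, SAMtools 0.1.18 and Bowtie2 2.2.8 were named, with the build mm10. What each tool did, which annotation was used, whether strand was used and how libraries were scaled is not given in the sources used here. In all 6 files the upper quartile was 10.5 to 10.6 FPKM. Nothing in the labels says that replicates share a litter or batch, and the numbers 1 to 3 were used as names.

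The 12248 genes that reached 1 FPKM in 3 or more of the 6 libraries were put on log2(FPKM + 1) and compared with limma 3.58.1 (R 4.3.3; moderated, mean-variance trend, two-sided; Benjamini-Hochberg over all of them; threshold 0.05). P-values set the difference between groups against the spread between mice within groups, moderated over all genes tested. Members and gene lists were chosen with earlier results of these data known. Named genes are the 10 members and up to 3 genes of smallest p per list; the eIF2 kinases, Atf3, Fgf21, Slc7a11 and Gfral were named for their role after their values were seen. A gene that this rule names is not reported here. Alternatives were another pseudocount, no or a stricter filter, 2 scalings, each library left out, the replicate block, array weights, and no or a robust trend. The fit was also run on simulated data with independent noise and changes only in the more abundant genes. That run does not cover low members such as Asns and Phgdh. Depth was estimated from the lowest values of genes with 1 transcript of known length. Figures used matplotlib 3.10.9 (Python 3.11.15).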

Additional observations from a re-analysis of the deposited data

How the results depend on the processing

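Of 118 values of the 8 tested members in 15 alternative settings (a filter of 5 FPKM removed Asns and Phgdh), 107 kept their sign and stayed short of the threshold, 10 changed sign and 1 passed. The 1 that passed was Sesn2 without diet replicate 2, so the number of members that passed was 0 to 1 with a library left out and 0 in the other settings. All 10 sign changes were in Ddit3, Phgdh and Psph. Ddit3 was at 0.0016 with upper-quartile scaling, 0.0017 with quantile normalization and 0.0653 with array weights, and at 0.0111 and 0.0371 without tofogliflozin replicate 1 or 2 and 0.1228 without diet replicate 2 (lowest -0.0851, without diet replicate 1). Phgdh was at -0.0698 without tofogliflozin replicate 3 and -0.1575 without diet replicate 1 (highest 0.2325, without diet replicate 3). Psph was at -0.0815 without tofogliflozin replicate 2 and -0.0106 without diet replicate 2 (highest 0.1759, without tofogliflozin replicate 3). Of 229 list genes tested, 0 passed in the setting reported, 1 with upper-quartile scaling (Glul), 6 with array weights, 4 with the robust trend and 0 to 3 with a library left out; the 3 were without diet replicate 2, Slc1a5 and Trib2 among them. Of all genes, 31 passed in the setting reported, 1 with no filter, 20 with the 5 FPKM filter, 47 with upper-quartile scaling, 123 with array weights, 61 with the robust trend, and 2 (without tofogliflozin replicate 3) to 66 (without diet replicate 2) with a library left out. The medians of the lists for eIF2, tRNA charging, serine and folate enzymes, mitochondrial stress, mTORC1 signalling, p53 targets and tribbles genes, all close to 0, each changed sign in at least 1 setting. The 6 with array weights included Agxt2, Glul and Sel1l, and the 4 with the robust trend included Glul. The cause of these shifts was not tested. With the replicate block 26 genes passed, 0 of them members, and Gdf15 had an adjusted p of 0.0667. The deviations of same-numbered mice correlated at -0.05, -0.06 and 0.05 over all genes tested. A correlation over all genes cannot tell whether the numbers pair the mice for some of them. Trib3, Chac1 and Asns rest on about 3.25 to 26.4 fragments a library, so their values are the least precise of the members.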
